A study of Mus musculus with 17 samples.

Results

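The 33 genes described here encode enzymes and membrane proteins of the lysosome. They comprise 9 cysteine proteases, 3 aspartic or serine proteases, 6 glycosidases, 6 proteins of lipid and sphingolipid handling, 5 membrane proteins and 4 subunits of the proton pump. The listed genes were matched by symbol to probe sets that carry 1 gene symbol, and the brightest probe set was to be taken where a gene had several. Each of the 33 had exactly 1 such probe set, so the module is 33 of the 19751 genes measured. All 33 lay above the median of the measured genes on every array. The dimmest was Ctsf, at the 51.6th percentile on its lowest array.

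Each of 17 Balb/c mice gave 1 lung RNA sample, which was hybridised to a Mouse Gene 1.0 ST array of Affymetrix. The 6 saline mice had saline at both sensitization and challenge. The 5 isotype mice had ovalbumin (OVA), an egg white protein used as an allergen, at both steps, with an isotype antibody. The 6 anti-RGMb mice had OVA at both steps, with a monoclonal antibody to RGMb. RGMb is a membrane-anchored protein that binds neogenin and takes part in signalling by bone morphogenetic proteins. Lungs of all groups were taken at the same time point of the treatment. The sample titles name no experiment, and the split into 2 experiments used here was read from the mouse numbers. Mice numbered 1, 2 and 3 were taken as experiment 1, with 3 mice of each group. Those numbered 1-2, 2-2 and 3-2 were taken as experiment 2, with 3 saline, 3 anti-RGMb and 2 isotype mice. The sources used here do not give age, sex, antibody dose or days of treatment. The labels name no antibody for saline mice, so effects of OVA and of the isotype antibody cannot be told apart, and no group had anti-RGMb without OVA.

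Lysosomes are acidic, membrane-bound compartments in which proteases, glycosidases and lipases break down material taken up by endocytosis, phagocytosis or autophagy. A vacuolar proton pump (V-ATPase) acidifies the lumen, heavily glycosylated proteins such as LAMP1 and LAMP2 line the membrane, and cysteine proteases of the cathepsin family cut proteins and, in antigen-presenting cells, the invariant chain of MHC class II. In the lung, macrophages are rich in lysosomes, and the lamellar bodies of alveolar type 2 cells are lysosome-related organelles. Transcription factors of the MiT/TFE family (TFEB, TFE3, MITF and TFEC) bind a palindromic element in the promoters of many lysosomal genes, known as the CLEAR element.

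The inner 8 letters of that element, TCACGTGA, were searched in RefSeq promoters of mouse build GRCm38.p6, each from 250 bases before to 50 bases after a start site. The letters are their own reverse complement, so both strands give the same matches, and they contain the shorter E-box core CACGTG. The RefSeq table held promoters of 28 of the 33 genes and none for Ctsb, Ctsh, Npc1, Asah1 and Atp6v1b2. Promoters of 6 of the 28 genes held TCACGTGA, compared with 1.125% of the 27025 genes in the table. Counted by promoter, these were 6 of 31 and 0.974% of 32851. The stretches around the matches are printed 5′ to 3′ on the gene's strand, with the matching letters in capitals, because these genes moved to very different extents:
Atp6v0d1, chr8:105566053-105566092, minus strand: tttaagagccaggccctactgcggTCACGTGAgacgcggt
Atp6v1a, chr16:44139360-44139415, minus strand: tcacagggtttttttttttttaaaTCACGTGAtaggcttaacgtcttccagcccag
Ctsa, chr2:164833736-164833784, plus strand: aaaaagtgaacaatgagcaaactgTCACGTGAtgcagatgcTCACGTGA
Ctsd, chr7:142387895-142387950, minus strand: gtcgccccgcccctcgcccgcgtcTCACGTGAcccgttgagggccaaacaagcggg
Gla, chrX:134601169-134601255, minus strand: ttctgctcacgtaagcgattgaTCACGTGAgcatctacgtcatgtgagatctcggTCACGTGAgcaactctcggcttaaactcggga
Mcoln1, chr8:3500449-3500504, plus strand: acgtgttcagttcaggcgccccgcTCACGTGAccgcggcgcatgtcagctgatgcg
Ctsa and Gla held 2 matches each and the other 4 genes 1 each. Isotype minus saline, these genes ran from 1.19 log2 units (Gla) through 0.53 (Ctsd), 0.46 (Ctsa), 0.30 (Atp6v1a) and 0.28 (Atp6v0d1) to 0.05 (Mcoln1). CACGTG alone stood in promoters of 11 of the 28 genes, adding Ctsf, Ctsl, Glb1, Lamp1 and Lgmn, and of 8.09% of all genes (7.15% of all promoters). The windows of Ctsk and Ctss, the 2 members with the largest isotype minus saline differences, held neither string. A match describes letters in this window and is not evidence of binding.

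Median intensity per array was 120 to 125 in experiment 1 but 362 to 386 in experiment 2, so each value is given on the log2 scale relative to the mean of the saline mice of the same experiment. The surfactant genes Sftpc, Sftpb and Sftpa1 and the club cell gene Scgb1a1 were at or above the 99.76th percentile on every array, as a check of the tissue. Saline mouse 1 lay apart from the other saline mice for these genes: 3 of the 33 were above the saline mean of experiment 1 in it, against 27 and 31 in saline mice 2 and 3. The labels call the samples separate mice, and precision is limited by how many arrays there were. Differences between groups are from limma, with the experiment as a term, and values after ± are standard errors. "Adjusted p" is Benjamini-Hochberg adjusted over all 19751 genes of a comparison, with a threshold of 0.05.

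Most of the lysosomal genes were higher in lungs of isotype than of saline mice, and lungs of anti-RGMb mice lay between the other groups. Isotype minus saline, 29 of the 33 genes were higher (14.6% of all genes were higher), 0 were lower (21% of all genes were lower) and 4 did not pass in limma. Ctsf and Scarb2 were the 2 genes lower at an unadjusted limma p under 0.05 (25.1% of all genes were). Both passed in limma when arrays were centred on their medians (Ctsf -0.24, adjusted p = 0.0316, and Scarb2 -0.18, adjusted p = 0.017). The median difference of the 33 genes was 0.52 log2 units, where the median of all genes was -0.04. The 4 genes that did not pass were Ctsf, Scarb2, Mcoln1 and Atp6ap1.

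Anti-RGMb minus isotype, 26 of the 33 genes were lower (10% of all genes were lower) and 0 were higher (11.1% of all genes were higher) in limma. Only Ctsf was higher at an unadjusted limma p under 0.05 (17.1% of all genes were). The median difference was -0.32, against 0.03 for all genes. Anti-RGMb minus saline, 16 genes were still higher (4.26% of all genes were higher), 0 were lower (2.24% of all genes were lower) and 17 did not pass. None of the 33 was lower at an unadjusted limma p under 0.05 in that comparison (11.2% of all genes were). The median difference there was 0.22, against -0.01 for all genes. The 3 comparisons share groups, so they are not independent of each other.

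Across the 3 comparisons the genes fell into 4 patterns. Ctsa, Ctsb, Ctsc, Ctsd, Ctsk, Ctss, Ctsz, Gla, Glb1, Gusb, Hexa, Laptm5, Lgmn, Lipa, Man2b1 and Psap (16 genes) were higher in isotype than saline mice, lower in anti-RGMb than isotype mice, and still higher in anti-RGMb than saline mice. A further 10, Atp6v0d1, Atp6v1a, Atp6v1b2, Ctsh, Ctsl, Lamp1, Neu1, Npc1, Npc2 and Tpp1, passed the first 2 comparisons in the same directions but not the last. Asah1, Lamp2 and Ppt1 (3 genes) passed only in isotype minus saline, and the remaining 4 passed in none.

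**Figure D1:**
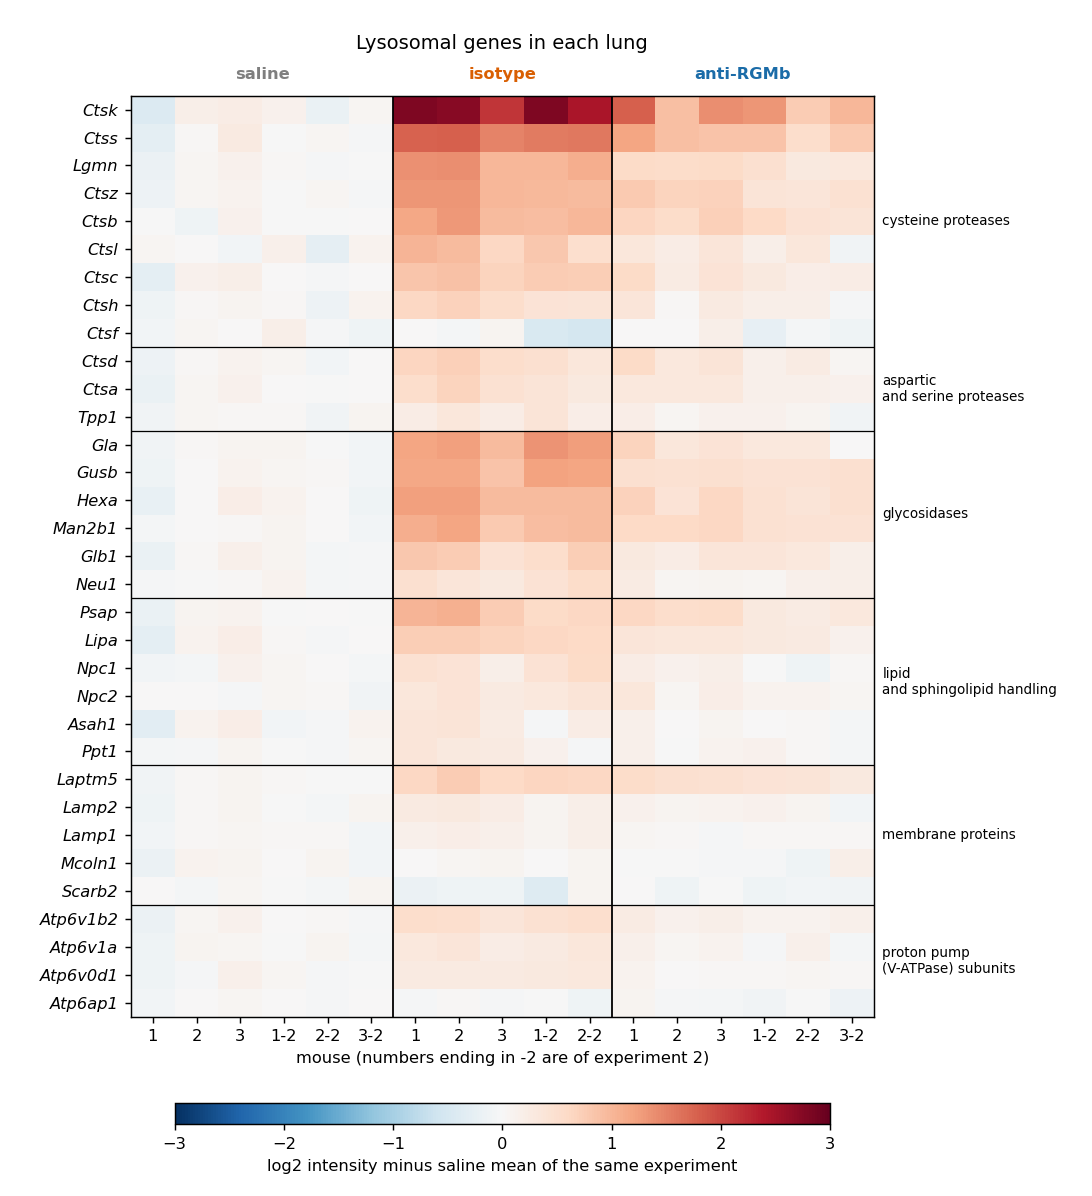
Relative log2 level of each of the 33 lysosomal genes (rows, grouped by role) in each of the 17 lungs (columns, grouped by treatment), as log2 intensity minus the saline mean of the same experiment. The 5 isotype columns are red for most genes, up to 2.81 for Ctsk in mouse 1, and blue for Ctsf in mice 1-2 and 2-2 (-0.46 and -0.52), and the 6 anti-RGMb columns are paler.

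Seen per mouse, the median relative level of the 33 genes was -0.13 to 0.10 in saline mice, 0.45 to 0.70 in isotype mice and 0.14 to 0.33 in anti-RGMb mice. The 3 ranges did not overlap. Isotype mouse 2 was the highest and isotype mouse 1-2 the lowest of the isotype lungs. Among anti-RGMb lungs, mouse 1 was the highest and mouse 3-2 the lowest. In each isotype lung, 29 to 31 of the 33 genes were above the saline mean, and in the anti-RGMb lungs 23 to 32 were. In the saline lungs 3 (mouse 1) to 31 (mouse 3) were, with 24, 12 and 14 in mice 1-2, 2-2 and 3-2. The share of all genes above the saline mean was not counted.

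The cysteine proteases held the largest differences. Of 9 genes, 8 were higher isotype minus saline (median 1.06), 8 were lower anti-RGMb minus isotype (median -0.54) and 6 were higher anti-RGMb minus saline (median 0.47). Ctsk encodes cathepsin K, a collagen-degrading protease best known from osteoclasts. It had relative log2 levels of 2.81, 2.73, 2.14, 2.80 and 2.44 in isotype mice 1, 2, 3, 1-2 and 2-2. Saline mice ran from -0.41 (mouse 1) through a median of 0.10 to 0.23, and anti-RGMb mice from 0.76 through 1.17 to 1.80. All isotype lungs were above all anti-RGMb lungs, which in turn were all above the saline lungs. The rise from saline to isotype was 2.57 ± 0.17 log2 units, or 5.95-fold (adjusted p = 3.21e-09). The fall from isotype to anti-RGMb was -1.37 ± 0.17 (adjusted p = 3.03e-05), and anti-RGMb mice stayed 1.20 ± 0.16 above saline (adjusted p = 0.000111). As intensity, the geometric means of Ctsk in experiment 1 were 196.8 in saline, 1159 in isotype and 508 in anti-RGMb mice, and in experiment 2 they were 663.6, 4077 and 1355.

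Ctss encodes cathepsin S, the protease that degrades the invariant chain in antigen-presenting cells, and is the next protein-coding gene to Ctsk on the chromosome. Its relative levels were 1.77, 1.79, 1.49, 1.57 and 1.58 in the isotype mice. They were -0.30, 0.01 and 0.26 (lowest, median and highest) in saline mice and 0.54, 0.86 and 1.18 in anti-RGMb mice. No 2 groups overlapped. Ctss was 1.63 ± 0.10 higher in isotype than saline mice (adjusted p = 8.52e-10), -0.77 ± 0.10 in anti-RGMb relative to isotype mice (adjusted p = 3.18e-05) and 0.86 ± 0.09 above saline in anti-RGMb mice (adjusted p = 9.09e-06).

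Lgmn encodes legumain, an asparaginyl endopeptidase that also processes cathepsins to their mature forms. It was at 1.36, 1.39, 0.99, 1.00 and 1.08 in the isotype mice, at -0.17, 0.02 and 0.12 in saline mice and at 0.30, 0.52 and 0.58 in anti-RGMb mice. The groups were again apart. Its differences were 1.15 ± 0.08 (adjusted p = 2.64e-09), -0.69 ± 0.08 (adjusted p = 1.13e-05) and 0.47 ± 0.07 (adjusted p = 0.000375) in the 3 comparisons in the order above. Ctsb, for cathepsin B, an abundant endo- and exopeptidase, was at 1.16, 1.29, 0.96, 0.94 and 0.99 in isotype mice, at -0.12, -0.01 and 0.14 in saline mice and at 0.39, 0.58 and 0.71 in anti-RGMb mice. Those ranges did not overlap, with differences of 1.06 ± 0.07 (adjusted p = 1.56e-09), -0.50 ± 0.07 (adjusted p = 4.98e-05) and 0.56 ± 0.06 (adjusted p = 1.58e-05).

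Of the other cysteine proteases, Ctsz (cathepsin Z, a carboxypeptidase) and Ctsc (cathepsin C, which activates granule serine proteases) passed in all 3 comparisons. Ctsz rose by 1.09 and fell by 0.54, and Ctsc rose by 0.77 and fell by 0.44. Ctsl (cathepsin L, an endopeptidase) and Ctsh (cathepsin H, an aminopeptidase that also processes surfactant proteins) passed in the first 2. Ctsl was 0.77 higher isotype minus saline and -0.55 anti-RGMb minus isotype, and Ctsh 0.52 and -0.36. Above saline they were 0.22 (adjusted p = 0.19) and 0.16 (adjusted p = 0.197) in anti-RGMb mice, and for both genes anti-RGMb and saline lungs overlapped.

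Ctsf, for cathepsin F, did not share that course. Its isotype values were 0.02, -0.05 and 0.08 in experiment 1 and -0.46 and -0.52 in experiment 2, so the 2 isotype mice of experiment 2 were low and the 3 of experiment 1 were not. Saline mice ran from -0.14 to 0.17. Isotype minus saline gave -0.21 ± 0.08 (adjusted p = 0.0586), with 0.01 ± 0.08 in experiment 1 and -0.49 ± 0.09 in experiment 2. The difference between the experiments was -0.50 and did not pass (interaction adjusted p = 0.0733). Without saline mouse 1, isotype mouse 1 or isotype mouse 3, Ctsf was called lower (-0.26, -0.24 and -0.25, adjusted p = 0.0252, 0.0476 and 0.0274).

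**Figure D2:**
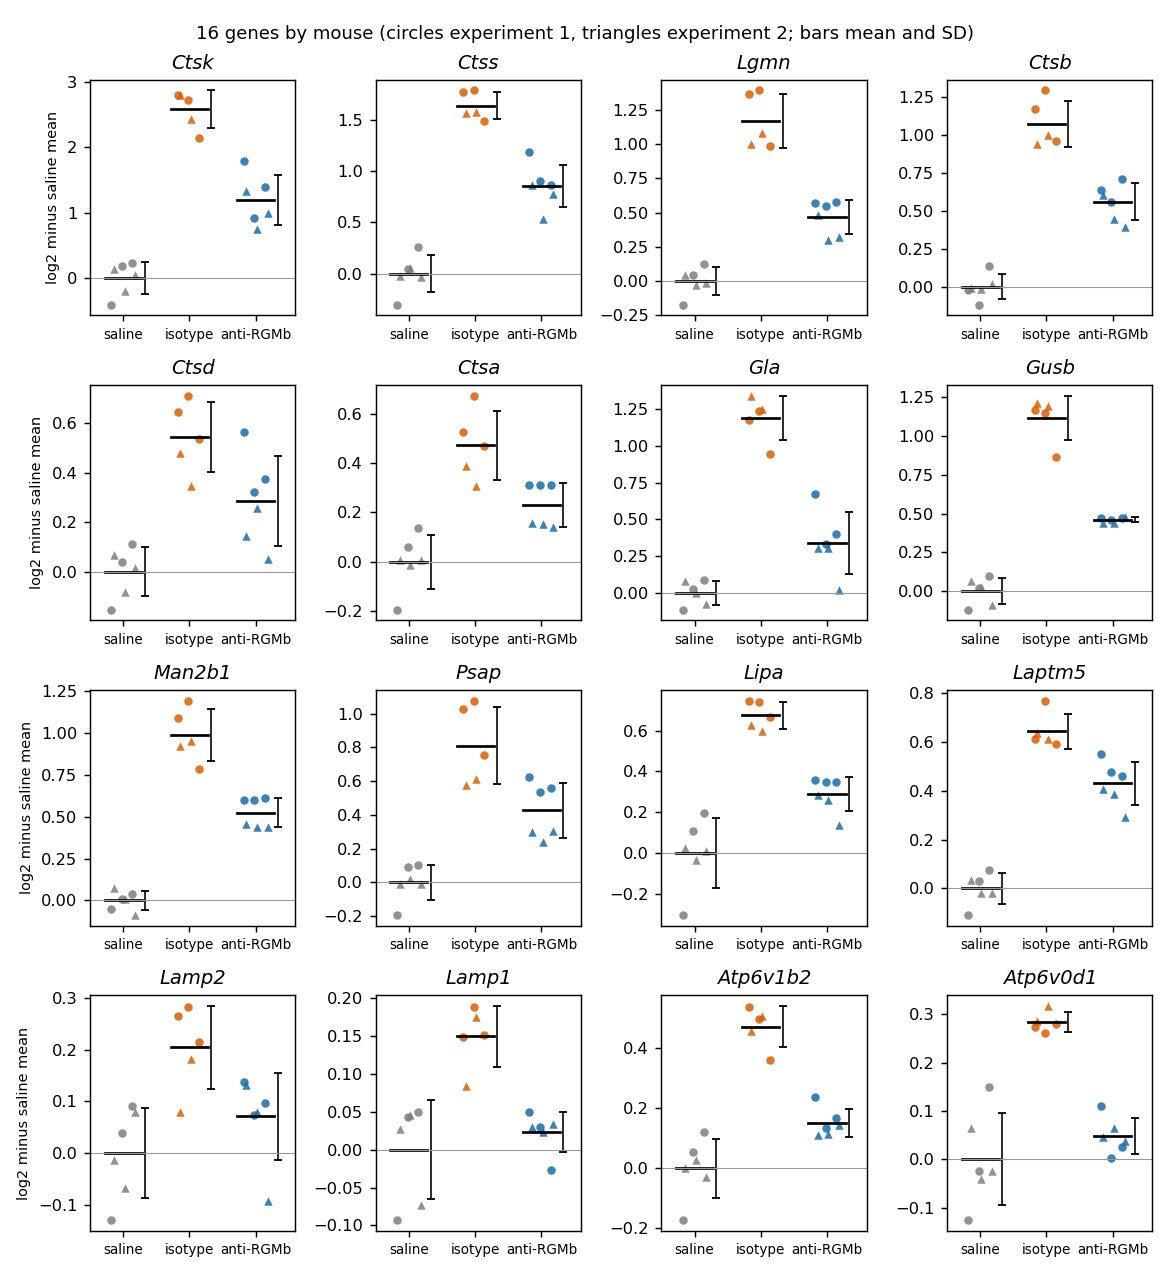
Relative log2 level by mouse for 16 of the lysosomal genes, those with the 2 smallest p in their role group in isotype minus saline or in anti-RGMb minus isotype. Points are mice (circles experiment 1, triangles experiment 2), horizontal bars group means and vertical bars SD, and each panel has its own vertical scale. Ctsk reaches 2.81 in isotype mice, whereas Lamp1 reaches 0.19.

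The aspartic and serine proteases changed in the same directions at smaller size. All 3 were higher isotype minus saline and all 3 lower anti-RGMb minus isotype, and 2 were higher anti-RGMb minus saline. Ctsd, for the aspartic protease cathepsin D, was at 0.64, 0.71, 0.54, 0.48 and 0.35 in isotype mice, at -0.15, 0.03 and 0.11 in saline mice and at 0.05, 0.29 and 0.56 in anti-RGMb mice. Isotype and saline lungs were apart, while anti-RGMb lungs overlapped with both. Ctsd differed by 0.53 ± 0.07 (adjusted p = 1.32e-05), -0.24 ± 0.07 (adjusted p = 0.0212) and 0.29 ± 0.07 (adjusted p = 0.0151). The fall under anti-RGMb did not pass without isotype mouse 2 or 1-2 (-0.22 and -0.23, adjusted p = 0.0585 and 0.0515).

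Ctsa encodes the serine carboxypeptidase cathepsin A, which also protects beta-galactosidase and neuraminidase in a complex. It was at 0.52, 0.67, 0.47, 0.39 and 0.30 in isotype mice, at -0.20, 0.01 and 0.14 in saline mice and at 0.14, 0.23 and 0.31 in anti-RGMb mice. Anti-RGMb mice 1, 2 and 3 had the identical deposited intensity for Ctsa, which makes their spread small. Ctsa differed by 0.46 ± 0.06 (adjusted p = 9.94e-06), -0.23 ± 0.06 (adjusted p = 0.0107) and 0.23 ± 0.06 (adjusted p = 0.0215), and the last did not pass without anti-RGMb mouse 2 or 3 (0.22, adjusted p = 0.0527 in both cases). Tpp1, for the serine protease tripeptidyl peptidase 1, was higher by 0.27 ± 0.06 in isotype mice (adjusted p = 0.00143) and -0.18 ± 0.06 in anti-RGMb relative to isotype mice (adjusted p = 0.0344). That fall did not pass without anti-RGMb mouse 2, 2-2 or 3-2 or isotype mouse 2 or 1-2 (adjusted p = 0.0698, 0.0511, 0.0658, 0.0836 and 0.107).

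All 6 glycosidases were higher isotype minus saline (median 1.02) and all 6 were lower anti-RGMb minus isotype (median -0.50), and 5 were higher anti-RGMb minus saline (median 0.40). Gusb encodes beta-glucuronidase, which removes glucuronic acid from glycosaminoglycans. Its isotype values were 1.17, 1.15, 0.86, 1.21 and 1.19. Saline mice had -0.12, 0.02 and 0.10, and anti-RGMb mice 0.44, 0.47 and 0.48 (lowest, median and highest). The 6 anti-RGMb lungs lay very close together, between the separate ranges of the other groups. Gusb rose by 1.12 ± 0.06 (adjusted p = 2.89e-10), with the 45th smallest p of all genes, and fell under anti-RGMb by 0.66 ± 0.06 (adjusted p = 2.39e-06), with the 25th smallest p. It stayed 0.46 ± 0.06 above saline (adjusted p = 4.3e-05). In anti-RGMb mice 1-2 and 2-2 the deposited Gusb values were identical.

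Man2b1 encodes lysosomal alpha-mannosidase, which trims mannose from glycoproteins. Isotype mice had 1.09, 1.19, 0.79, 0.93 and 0.95, saline mice -0.09, 0.01 and 0.07, and anti-RGMb mice 0.44, 0.53 and 0.61. No ranges overlapped, and the differences were 0.98 ± 0.06 (adjusted p = 1.59e-09), -0.46 ± 0.06 (adjusted p = 5.84e-05) and 0.53 ± 0.06 (adjusted p = 1.36e-05). Gla, for alpha-galactosidase A, the enzyme of globotriaosylceramide breakdown, was at 1.17, 1.24, 0.94, 1.34 and 1.25 in isotype mice, at -0.11, 0.01 and 0.09 in saline mice and at 0.02, 0.32 and 0.67 in anti-RGMb mice. Anti-RGMb mouse 3-2 was within the saline range and mouse 1 the highest of its group. Gla differed by 1.19 ± 0.09 (adjusted p = 1.73e-08), -0.85 ± 0.09 (adjusted p = 8.81e-06) and 0.34 ± 0.09 (adjusted p = 0.0231). The last did not pass without saline mouse 1 or 3-2 or anti-RGMb mouse 1 or 3 (adjusted p = 0.0566, 0.0534, 0.0503 and 0.0561).

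Hexa, for the alpha subunit of beta-hexosaminidase, which degrades GM2 ganglioside, was 1.05 ± 0.08 higher in isotype than saline mice and -0.55 ± 0.08 in anti-RGMb relative to isotype mice (adjusted p = 1.01e-08 and 7.63e-05). Glb1, for beta-galactosidase, had 0.65 ± 0.08 and -0.36 ± 0.08 (adjusted p = 2.24e-06 and 0.00207). Its excess over saline under anti-RGMb, 0.29, did not pass without anti-RGMb mouse 3 (0.28, adjusted p = 0.0519). Neu1, for the sialidase neuraminidase 1, had 0.42 ± 0.05 and -0.30 ± 0.05, and was the glycosidase that did not pass anti-RGMb minus saline (0.13, adjusted p = 0.157).

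**Figure D3:**
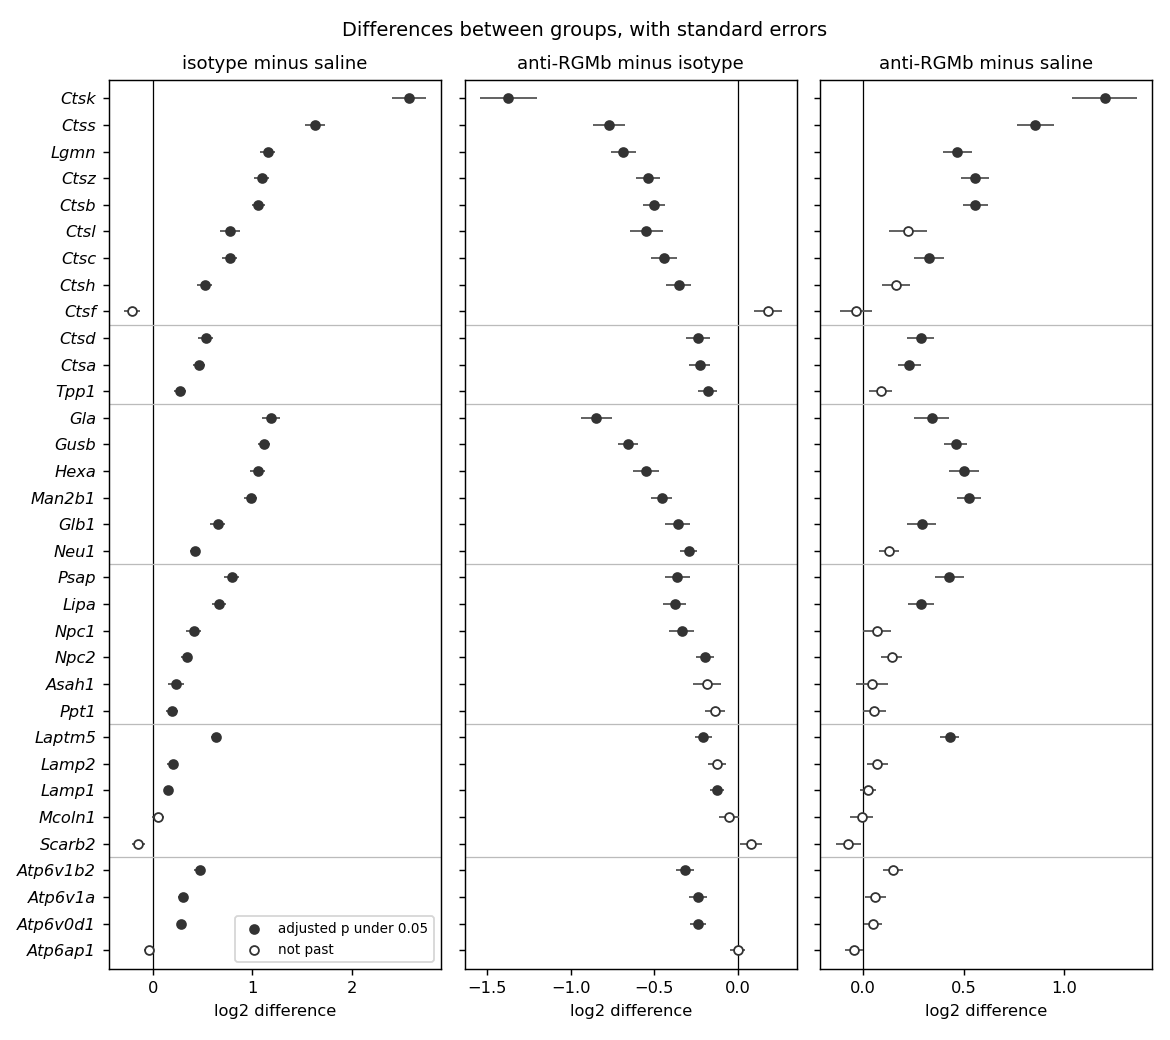
Log2 difference of each of the 33 lysosomal genes (points, bars ± SE) in the comparisons of isotype with saline, of anti-RGMb with isotype and of anti-RGMb with saline mice, in the same gene order and with separate horizontal scales. Filled points have an adjusted p under 0.05: 29 lie right of 0 in the first panel, 26 left of 0 in the second and 16 right of 0 in the last.

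All 6 genes of lipid handling were higher isotype minus saline (median 0.37), 4 were lower anti-RGMb minus isotype (median -0.27) and 2 were higher anti-RGMb minus saline (median 0.11). Psap encodes prosaposin, the precursor of the saposins that present sphingolipids to their hydrolases. It was at 1.02, 1.08, 0.76, 0.58 and 0.62 in isotype mice, at -0.19, 0.01 and 0.10 in saline mice and at 0.24, 0.42 and 0.63 in anti-RGMb mice. Isotype mice 1 and 2 were high, and those of experiment 2 were below anti-RGMb mouse 1, which is of experiment 1. Within each experiment all isotype lungs were above all anti-RGMb lungs. Psap differed by 0.79 ± 0.08 (adjusted p = 3.05e-07), -0.36 ± 0.08 (adjusted p = 0.00237) and 0.43 ± 0.07 (adjusted p = 0.00111).

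Lipa, for lysosomal acid lipase, which hydrolyses cholesteryl esters and triglycerides, was at 0.75, 0.74, 0.66, 0.63 and 0.60 in isotype mice, at -0.30, 0.02 and 0.20 in saline mice and at 0.14, 0.31 and 0.36 in anti-RGMb mice. All isotype lungs were above the rest, and anti-RGMb mouse 3-2 was below saline mouse 3 of the other experiment. Within each experiment all anti-RGMb lungs were above all saline lungs. Lipa differed by 0.67 ± 0.07 (adjusted p = 6.9e-07), -0.38 ± 0.07 (adjusted p = 0.000776) and 0.29 ± 0.07 (adjusted p = 0.0117). The cholesterol exporters Npc1 and Npc2, which act in sequence to move cholesterol out of the lysosome, were 0.41 ± 0.07 and 0.34 ± 0.05 higher in isotype than saline mice (adjusted p = 0.00024 and 5.85e-05). In anti-RGMb relative to isotype mice they were -0.34 ± 0.07 and -0.20 ± 0.05 (adjusted p = 0.00289 and 0.012).

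Asah1 (acid ceramidase) and Ppt1 (palmitoyl-protein thioesterase 1) were higher isotype minus saline by 0.23 ± 0.08 (adjusted p = 0.0374) and 0.19 ± 0.06 (adjusted p = 0.0175), and did not pass anti-RGMb minus isotype (-0.19, adjusted p = 0.129, and -0.14, adjusted p = 0.121). For both genes isotype and saline lungs overlapped. The Asah1 rise did not pass when any of saline mice 1, 1-2 and 2-2 or isotype mice 1, 2, 3 and 2-2 was left out (adjusted p = 0.0795, 0.0645, 0.0527, 0.0849, 0.0952, 0.0506 and 0.0784), nor that of Ppt1 without isotype mouse 1 (0.16, adjusted p = 0.0555). Anti-RGMb minus isotype, Asah1 passed when saline mouse 1 (-0.18, adjusted p = 0.0363) was left out, or when isotype mouse 1-2 was (-0.25, adjusted p = 0.046), and Ppt1 without isotype mouse 2-2 (-0.19, adjusted p = 0.0213).

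Of the 5 membrane proteins, 3 were higher isotype minus saline (median 0.15), 2 were lower anti-RGMb minus isotype (median -0.13) and 1 was higher anti-RGMb minus saline. That 1 was Laptm5, a lysosomal transmembrane protein made mostly by haematopoietic cells. Laptm5 was at 0.61, 0.77, 0.59, 0.63 and 0.61 in isotype mice, at -0.11, 0.01 and 0.08 in saline mice and at 0.29, 0.44 and 0.55 in anti-RGMb mice. The groups did not overlap, and the differences were 0.64 ± 0.05 (adjusted p = 2.51e-08), -0.21 ± 0.05 (adjusted p = 0.00617) and 0.43 ± 0.05 (adjusted p = 1.32e-05).

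Lamp1 and Lamp2 encode the most abundant glycoproteins of the lysosomal membrane. Lamp1 was at 0.15, 0.19, 0.15, 0.08 and 0.17 in isotype mice, at -0.09, 0.04 and 0.05 in saline mice and at -0.03, 0.03 and 0.05 in anti-RGMb mice. Isotype lungs were above all others, and the anti-RGMb range lay within that of the saline lungs. Lamp1 rose by 0.15 ± 0.04 (adjusted p = 0.01) and was -0.13 ± 0.04 in anti-RGMb relative to isotype mice (adjusted p = 0.0432). The latter call was lost in 12 of the 17 fits that left out 1 mouse: those without saline mouse 2, 1-2 or 2-2, anti-RGMb mouse 1, 2, 3, 1-2 or 2-2, or isotype mouse 1, 2, 3 or 2-2. In those 12 fits the difference was -0.13 to -0.11 and the adjusted p 0.0504 to 0.1.

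Lamp2 was at 0.26, 0.28, 0.21, 0.08 and 0.18 in isotype mice, at -0.13, 0.01 and 0.09 in saline mice and at -0.09, 0.09 and 0.14 in anti-RGMb mice, with overlap between all groups. Its rise was 0.20 ± 0.05 (adjusted p = 0.0077), and -0.13 ± 0.05 in anti-RGMb relative to isotype mice did not pass (adjusted p = 0.112). Mcoln1, a calcium channel of the lysosomal membrane, did not pass in any comparison, and its isotype minus saline difference was 0.05 with a 95% interval of -0.08 to 0.18. Scarb2, the receptor that carries glucocerebrosidase to lysosomes, was -0.15 ± 0.07 isotype minus saline (adjusted p = 0.0884) and was called lower without isotype mouse 2-2 (-0.22, adjusted p = 0.00358).

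Of the 4 proton pump subunits, 3 were higher isotype minus saline (median 0.29) and 3 were lower anti-RGMb minus isotype (median -0.24). In limma 0 passed anti-RGMb minus saline, where only Atp6v1b2 had an unadjusted p under 0.05 (higher, as were 7.98% of all genes). Atp6v1b2, a B subunit of the ATP-hydrolysing V1 sector, was at 0.53, 0.50, 0.36, 0.45 and 0.51 in isotype mice, at -0.17, 0.01 and 0.12 in saline mice and at 0.11, 0.14 and 0.24 in anti-RGMb mice. Isotype lungs were above all others. Atp6v1b2 differed by 0.47 ± 0.05 (adjusted p = 1.71e-06) and -0.32 ± 0.05 (adjusted p = 0.00033), and by 0.15 ± 0.05 from saline under anti-RGMb (adjusted p = 0.0887).

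Atp6v0d1, a subunit of the membrane-embedded V0 sector, was at 0.27, 0.26, 0.28, 0.29 and 0.32 in isotype mice, at -0.13, -0.02 and 0.15 in saline mice and at 0.00, 0.04 and 0.11 in anti-RGMb mice. The 5 isotype lungs lay close together and above all others. Its differences were 0.28 ± 0.05 (adjusted p = 0.000121) and -0.24 ± 0.05 (adjusted p = 0.00162). Atp6v1a, the catalytic A subunit, was 0.30 ± 0.05 higher in isotype mice (adjusted p = 0.000254) and -0.24 ± 0.05 in anti-RGMb relative to isotype mice (adjusted p = 0.00375). Atp6ap1, an accessory subunit, had differences of -0.04, -0.00 and -0.04, and the 95% interval of the first was -0.14 to 0.06.

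The experiments were also fitted with separate means and a shared spread. Isotype minus saline, 28 of the 33 genes were higher in experiment 1 (8.81% of all genes were). In experiment 2, 25 were higher (13.7% of all genes) and 1, Ctsf, was lower (15.8% of all genes). Anti-RGMb minus isotype, 16 of the 33 were lower in experiment 1 (3.13% of all genes). In experiment 2, 20 were lower (11.3% of all genes) and 1, Ctsf, was higher (0.35, adjusted p = 0.0124; 8.63% of all genes). Anti-RGMb minus saline, 14 were higher in experiment 1 (3.26% of all genes) and 8 in experiment 2 (2.65% of all genes). Some genes passed over both experiments but in neither by itself: Lamp1 isotype minus saline, Ctsd, Ctsa, Tpp1, Glb1 and Lamp1 anti-RGMb minus isotype, and Glb1 and Lipa anti-RGMb minus saline. In no comparison did the difference between the experiments pass for any of the 33 genes in limma, while over all genes 0.668%, 0.471% and 0% passed. At an unadjusted limma p under 0.05 there were 3 of the 33 in each comparison, and 10.1%, 11.3% and 3.03% of all genes. Gla, anti-RGMb minus isotype, was at -0.65 ± 0.11 in experiment 1 and -1.09 ± 0.12 in experiment 2 (interaction adjusted p = 0.307). Npc1 was at -0.17 and -0.54 (interaction adjusted p = 0.278).

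Other genes of the pathway were read from lists of lysosomal hydrolases, membrane proteins and transporters, V-ATPase subunits, sorting machinery, MiT/TFE factors and cystatins. Their counts stand against the shares of all genes given above, 14.6% higher and 21% lower isotype minus saline, 11.1% and 10% anti-RGMb minus isotype, and 4.26% and 2.24% anti-RGMb minus saline. Isotype minus saline, 23 of 43 other hydrolases were higher and 6 lower (median 0.28), and 23 of 39 other membrane proteins and transporters were higher and 8 lower (median 0.21). Of 18 other V-ATPase subunits, 11 were higher and 2 lower (median 0.21). Anti-RGMb minus isotype, 19 hydrolases were lower and 4 higher (median -0.11), 19 membrane proteins were lower and 3 higher (median -0.17), and 8 V-ATPase subunits were lower and 1 higher (median -0.20). Anti-RGMb minus saline, 12 hydrolases, 4 membrane proteins and 2 V-ATPase subunits were higher, and 1, 1 and 0 lower. The shares lower isotype minus saline, 14.0%, 20.5% and 11.1% in the order of the lists, were below the 21% of all genes. Whether any share differs from that of the 33 genes was not tested.

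Among hydrolases, Acp5, the tartrate-resistant acid phosphatase of osteoclasts and macrophages, was 2.00 ± 0.09 higher in isotype than saline mice (adjusted p = 5.23e-11) and fell under anti-RGMb by 1.08 ± 0.09 (adjusted p = 1.68e-06). Ifi30, the thiol reductase GILT of antigen processing, had differences of 1.34 and -0.60, Ctse (cathepsin E, an aspartic protease) of 1.12 and -0.37, and Galns (a sulfatase of keratan sulfate breakdown) of 0.86 and -0.52. Mcoln2, a channel related to Mcoln1, was 1.66 ± 0.13 higher in isotype mice (adjusted p = 1.78e-08) and -1.01 ± 0.13 in anti-RGMb relative to isotype mice (adjusted p = 3.36e-05). Cd68, a macrophage LAMP-family protein, had 1.27 and -0.54, Litaf, of late endosomal membranes, 0.73 and -0.38, and Mfsd12, a cysteine transporter, 0.92 and -0.66.

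In the V-ATPase, the subunit with the largest rise was Atp6v0d2 (1.23 ± 0.12 and -0.75 ± 0.12), the macrophage and osteoclast form of the d subunit, next to 0.28 and -0.24 for the widely expressed Atp6v0d1. Tcirg1, the a3 subunit of osteoclasts and macrophages, had 0.96 and -0.46, Atp6v0a4 0.64 and -0.33 and Atp6ap2 0.49 and -0.38. Atp6v0e2 went the other way, with -0.52 ± 0.07 isotype minus saline (adjusted p = 2.31e-05) and 0.31 ± 0.07 anti-RGMb minus isotype (adjusted p = 0.00573).

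The sorting list had 9 of 21 genes higher and 2 lower isotype minus saline (median 0.10), 8 lower and 2 higher anti-RGMb minus isotype (median -0.10) and 0 past in either direction anti-RGMb minus saline. Lyst, which regulates lysosome size, had 0.84 and -0.59, and Ap1b1, an adaptor subunit, 0.43 and -0.36. The 2 genes of the phosphotransferase that makes the mannose 6-phosphate tag differed in direction: Gnptab, for its alpha and beta subunits, was 0.44 ± 0.06 higher in isotype mice (adjusted p = 2.98e-05) and Gnptg, for its gamma subunit, was -0.34 ± 0.05 (adjusted p = 8.05e-05).

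Of 20 genes of the MiT/TFE and nutrient-sensing list, 7 were higher and 1 lower isotype minus saline (median 0.08), 6 were lower and 0 higher anti-RGMb minus isotype (median -0.08), and 1 was higher anti-RGMb minus saline. That last count is 5% of the list, near the 4.26% of all genes, and the 5% lower isotype minus saline compares with 21% of all genes. Tfec, the family member of macrophages and osteoclasts, was 1.95 ± 0.13 higher in isotype than saline mice (adjusted p = 3.14e-09), fell under anti-RGMb by 1.23 ± 0.13 (adjusted p = 7.52e-06) and stayed 0.72 ± 0.12 above saline (adjusted p = 0.00111). Mitf had 0.67 and -0.53, Fnip2, a partner of folliculin, 0.45 and -0.39, and Tfeb 0.23 ± 0.05 (adjusted p = 0.00148) and -0.23 ± 0.05 (adjusted p = 0.00322). Of 10 cystatins and related proteins, not all of them inhibitors of cysteine proteases, 4 were higher and 0 lower isotype minus saline (median 0.05). Anti-RGMb minus isotype, 4 were lower and 1 higher (median -0.08). The 4 higher genes were Cst7 (1.42 and -0.88), which encodes cystatin F, an inhibitor of cathepsin C in immune cells, and Cstb (0.89 and -0.61), for the intracellular inhibitor stefin B. The others were the fetuin genes Fetub (0.85 and -0.63) and Ahsg (0.56 and -0.46).

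**Figure D4:**
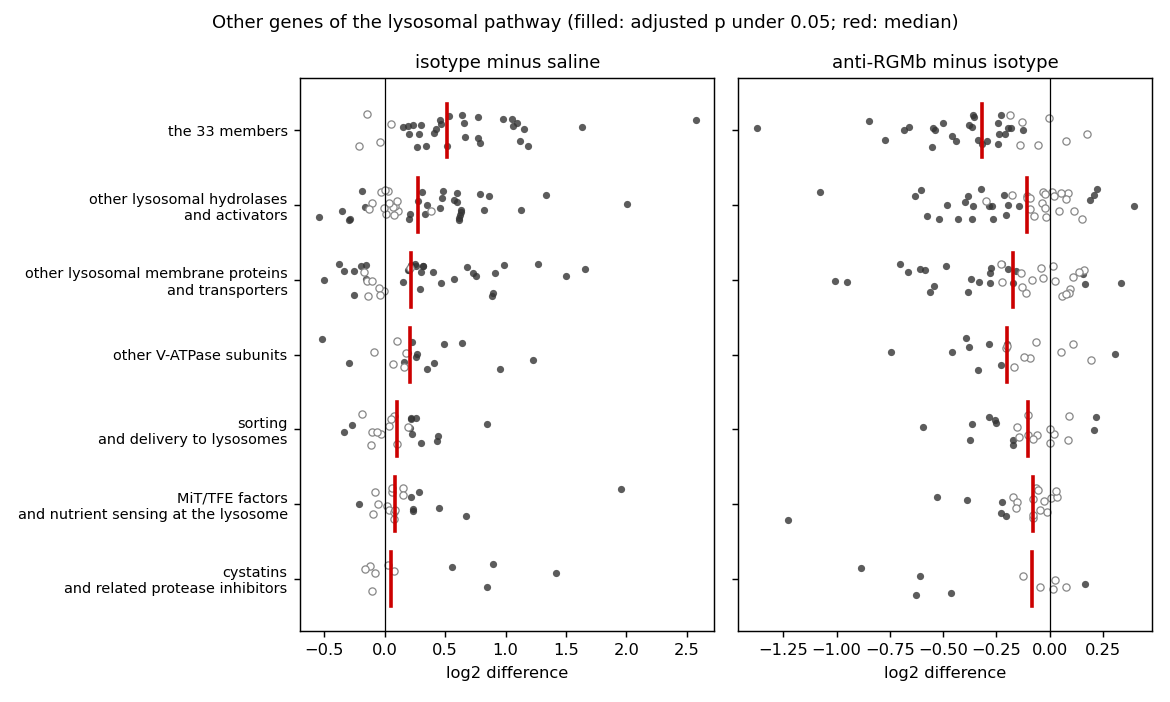
Log2 differences of the 33 lysosomal genes and of 6 lists of other pathway genes, isotype minus saline (left) and anti-RGMb minus isotype (right), on separate horizontal scales. Each point is a gene, filled points have an adjusted p under 0.05, and red lines are medians, from 0.52 for the 33 genes to 0.05 for the cystatins on the left.

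Markers of several cell types also differed between the groups. Their counts stand against the same shares of all genes, 14.6% higher and 21% lower isotype minus saline. For anti-RGMb minus isotype these were 11.1% and 10%, and for anti-RGMb minus saline 4.26% and 2.24%. In whole lung, more cells of a type and more RNA per cell cannot be told apart. The summed intensity of 13 macrophage and monocyte markers, relative to the saline mean, was 0.908 to 1.09 in saline mice, 2.89 to 3.89 in isotype mice and 1.88 to 2.33 in anti-RGMb mice. Of these 13, 11 were higher isotype minus saline and 0 lower, 9 were lower anti-RGMb minus isotype and 0 higher, and 10 were higher anti-RGMb minus saline. The sum of 10 alveolar macrophage markers was 0.923 to 1.07, 1.63 to 2.68 and 1.41 to 2.09 in saline, isotype and anti-RGMb mice. Of these 10, 6 were higher and 1 lower isotype minus saline, and 3 were lower anti-RGMb minus isotype. Single genes differed by -0.18 to 3.96 isotype minus saline, with a median of 0.60. Isotype sums were 2.56 to 2.68 in experiment 1 and 1.63 to 1.78 in experiment 2. Anti-RGMb sums were 1.64 to 2.09 and 1.41 to 1.49. Per-mouse median log2 levels overlapped, at 0.38 to 0.81 in isotype and 0.08 to 0.73 in anti-RGMb mice. The sum of 8 eosinophil markers was 0.851 to 1.10, 3.39 to 4.81 and 1.96 to 3.40. All 8 eosinophil markers were higher isotype minus saline, and 6 were lower anti-RGMb minus isotype. The alveolar macrophage list shares Atp6v0d2 with the V-ATPase list, and Siglecf stands in both the alveolar macrophage and the eosinophil list. The alveolar type 2 list shares Napsa with the list of other hydrolases and Lamp3 with that of other membrane proteins.

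Neutrophil markers (10) summed to 0.762 to 1.43 in saline, 1.63 to 2.36 in isotype and 0.758 to 1.99 in anti-RGMb mice, with 4 higher isotype minus saline and 3 lower anti-RGMb minus isotype. Dendritic cell markers (11) summed to 0.940 to 1.05, 1.30 to 1.51 and 1.07 to 1.41, with 6 higher and 1 lower, then 3 lower, in the same comparisons. T cell markers (8) summed to 0.870 to 1.10, 1.30 to 1.84 and 0.935 to 1.68, and B cell markers (7) to 0.929 to 1.13, 1.18 to 1.81 and 0.965 to 1.16. Of these, 7 and 6 were higher isotype minus saline and 4 and 5 lower anti-RGMb minus isotype. Of 6 club cell markers, 5 were lower isotype minus saline and 5 higher anti-RGMb minus isotype, with sums of 0.962 to 1.06, 0.658 to 0.748 and 0.861 to 0.967. Of 8 endothelial markers, 7 were lower and 1 higher isotype minus saline and 6 higher anti-RGMb minus isotype, with sums of 0.965 to 1.03, 0.663 to 0.833 and 0.832 to 0.956. Alveolar type 2 markers (9) summed to 0.938 to 1.05, 0.920 to 0.969 and 0.933 to 1.01, with 5 lower and 1 higher isotype minus saline. Fibroblast markers (7) covered 0.937 to 1.05, 0.787 to 1.07 and 0.987 to 1.14, with 2 higher and 3 lower isotype minus saline. Single fibroblast genes differed by -0.77 to 0.77 there, with a median of -0.47. Anti-RGMb minus isotype, 2 were higher and 2 lower, with a median of 0.42. Isotype sums of this list were 1.01 to 1.07 in experiment 1 and 0.787 to 0.879 in experiment 2. Isotype minus saline, 10% of alveolar macrophage and 9.09% of dendritic cell markers were lower, below the 21% of all genes. Likewise, 11.1% of alveolar type 2 and 12.5% of endothelial markers were higher, below the 14.6% of all genes. Heart muscle markers (8) varied most within groups, at 0.538 to 1.91, 0.178 to 0.666 and 0.294 to 1.67, with 7 lower isotype minus saline and 4 higher anti-RGMb minus isotype. The part of these cell types in the differences of the lysosomal genes was not tested.

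**Figure D5:**
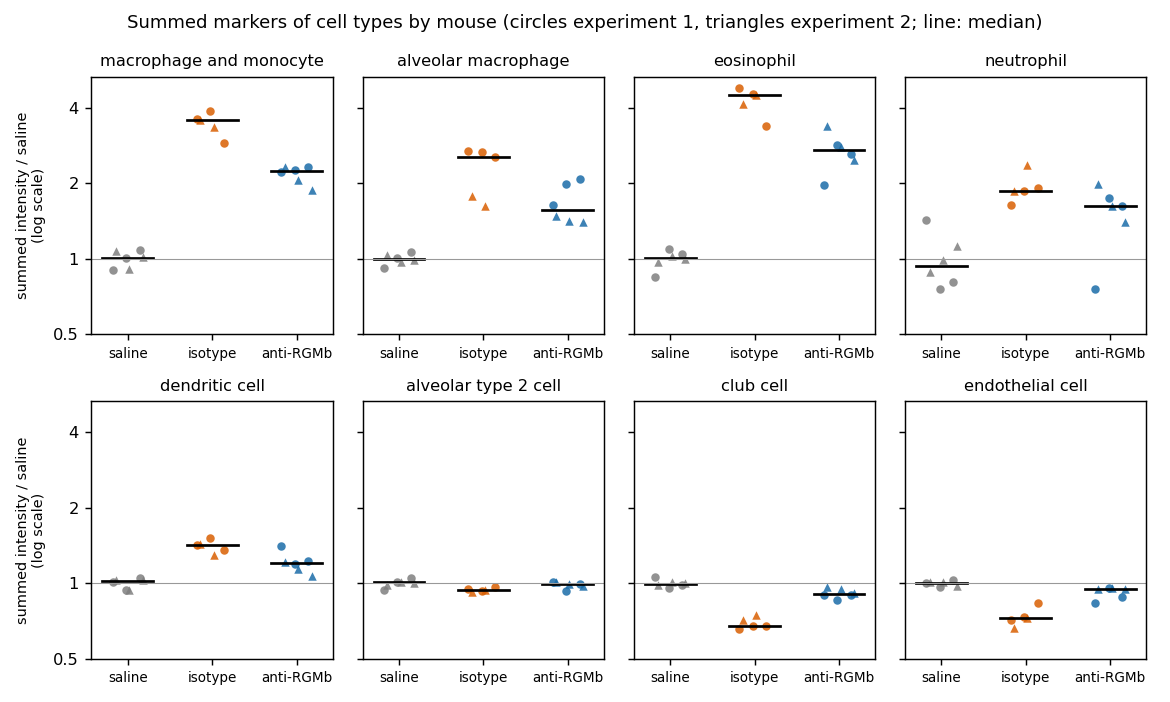
Summed intensity of the markers of 8 cell types in each lung, relative to the saline mean of the same experiment, on a log axis. Points are mice (circles experiment 1, triangles experiment 2) and lines are group medians. Macrophage and monocyte markers reach 2.89 to 3.89 in isotype mice, and alveolar type 2 markers stay between 0.920 and 1.05 in all groups.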

How the data were processed

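The authors deposited 1 table of linear probe set intensity for 17 lung arrays, and the submitters' processing notes name RMA, a method that corrects, normalizes and summarises probes. Its version and the genome build are not given in the sources used here. That the scale is linear was taken from the range of the values, all above 0. Array medians differed between the experiments, so the experiment was a term of every fit but 1 alternative, and the ratio between experiments has no meaning here.

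Of 24679 probe sets, 21354 had 1 gene symbol, 1275 several and 2050 none. Single-symbol probe sets were used, with the brightest kept for the 893 genes that had several, which left 19751 genes. The log2 of each value was taken with no added constant and no filter on dim genes.

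Group means with an experiment term were fitted with limma 3.58.1 in R 4.3.3 (eBayes, prior degrees of freedom 4.32, residual 13), 2-sided, with Benjamini-Hochberg adjustment over all genes and a threshold of 0.05. A model with 6 means gave the differences within experiments and their interaction. The fit was tested on simulated data. Tables were handled in Python 3.11.15 with pandas 2.3.3 and numpy 2.4.6.

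The 33 genes and all lists were chosen with earlier results of these data known. All 33 were reported, and values per mouse were given for the 2 genes of each role group with the smallest p in isotype minus saline and the 2 in anti-RGMb minus isotype, plus Ctsf, chosen after its values were seen. Of each pathway list, the 4 and 2 genes with the smallest p in those comparisons were named. Listed genes without a single-symbol probe set were not analysed here. Alternatives covered the experiment term, a replicate block, scaling, an added constant of 32, leaving out the dimmest 40% of genes, mean probe sets, the prior, array weights, each experiment and each mouse.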

Additional observations from a re-analysis of the deposited data

Results flagged for a closer look

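In 5 of 99 groups of mice (33 genes in 3 treatment groups), 1 mouse lay far from the others of its group by Dixon's test, which flags about 1 in 20 groups by chance. Values are log2 levels relative to the saline mean of the same experiment. Ctsl in anti-RGMb mouse 3-2 was -0.12, and the next lowest anti-RGMb mouse was at 0.19. Gusb in isotype mouse 3 was 0.86, and the next lowest isotype mouse was at 1.15. Lamp1 in anti-RGMb mouse 3 was -0.027, against 0.02 in the next. Lamp2 in anti-RGMb mouse 3-2 was -0.0925, against 0.07 in the next. Laptm5 in isotype mouse 2 was 0.77, and the next highest isotype mouse was at 0.63. Anti-RGMb mouse 3-2 appears in 2 of the 5 groups and also had the lowest median of the 33 genes among anti-RGMb mice (0.14).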

How the results depend on the processing

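Without a term for the experiment, 0 of the 33 genes were higher isotype minus saline, 0 lower anti-RGMb minus isotype and 0 higher anti-RGMb minus saline (34, 0 and 10 of all genes), and Ppt1 isotype minus saline turned to -0.015 (adjusted p = 0.999). That fit leaves the gap between the experiments' array medians in the residual spread. Genes lower isotype minus saline numbered 2 with arrays centred on their medians (4902 of all genes) and 1 with quantile normalization within experiments (4465). There was 1 without the dimmest genes (3767), 1 with array weights (4126) and 1 in experiment 2 alone (3129). With 1 mouse left out there were 0 to 1 (3711 to 4354 of all genes), and 1 without saline mouse 1 or isotype mouse 1, 3 or 2-2. Anti-RGMb minus isotype, 16 genes were lower in experiment 1 alone (618 of all genes) and 1 was higher in experiment 2 alone (1705 of all genes). Anti-RGMb minus saline, 8 were higher in experiment 2 alone (524 of all genes), and fewer mice enter each such difference. With 1 mouse left out, the counts of 29, 26 and 16 became 27 to 29, 23 to 27 and 13 to 16. Over all genes the same fits gave 2532 to 3004, 1522 to 2111 and 689 to 961. Other alternatives gave 25 to 29, 20 to 28 and 14 to 18 (1740 to 3087, 1519 to 2239 and 644 to 1297 of all genes).

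With a replicate block (the mouse number within an experiment), 28 genes were higher isotype minus saline, 23 lower anti-RGMb minus isotype and 14 higher anti-RGMb minus saline (2525, 1519 and 711 of all genes, against 2878, 1981 and 842 without it). It lost Asah1 (0.24, adjusted p = 0.0551) in the first comparison, Ctsd (-0.24, adjusted p = 0.0708), Tpp1 (-0.17, adjusted p = 0.0809) and Lamp1 (-0.12, adjusted p = 0.121) in the second, and Ctsd (0.29, adjusted p = 0.053) and Glb1 (0.29, adjusted p = 0.0584) in the last. Over 16 pairs of same-numbered mice the correlation of deviations ranged from -0.60 to 0.30 and passed 0.1 in 3, and the number was not taken as a pairing.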

Other observations

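Identical deposited values in different mice were common. In experiment 1, 51% of genes had the same intensity in at least 2 of the 9 arrays, and in experiment 2 32.5% did in at least 2 of the 8. Any 2 arrays of an experiment shared the value of 4.39% to 6.68% of genes in experiment 1 and of 0.78% to 6.09% in experiment 2, so no array was a copy of another. Of the 33 lysosomal genes, 4 had such values in experiment 1 (Ctsa, Ctsf, Lamp1 and Lipa) and 3 in experiment 2 (Gla, Gusb and Lamp2). For Lamp2 the equal mice were of 3 different groups, saline 3-2, isotype 1-2 and anti-RGMb 2-2. Standard errors of genes whose equal values fall within 1 group may be too small.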
